A study of Mus musculus with 9 samples.

Results

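Gene expression in the motor neurons of the oculomotor nucleus was set against that of motor neuron pools of the lumbar and lumbosacral spinal cord. All 9 arrays of the series entered this comparison. They hold 3 arrays of oculomotor motor neurons (OMN, from the midbrain), 3 from the fifth lumbar segment (L5) and 3 of the lumbar dorsolateral nucleus, taken at the level of the sixth segment (DL), and the OMN arrays were compared with the mean of L5 and DL, each spinal pool having equal weight, over 18193 named genes. A second, stricter set was formed from genes in which OMN differed from L5 and from DL in the same direction. All 3 pools came from male wild-type C57BL/6J mice at postnatal day 7, and no group carried a transgene or a treatment. About 200 neurons of each pool were cut by laser from 12 µm sections of each animal, and 1.5 ng of RNA or more was amplified for an Affymetrix Mouse Genome 430 2.0 array. The labels name cresyl violet, a stain for cell bodies, and no marker by which motor neurons were recognised.

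Oculomotor motor neurons drive most of the muscles that move the eye. They arise in the ventral midbrain, in front of the region of the neural tube in which Hox genes are active, whereas the spinal pools arise where Hox genes set the identity of motor columns and pools. In amyotrophic lateral sclerosis, a disease in which motor neurons die, limb motor neurons are lost early, and those of the eye muscles and of the pelvic sphincters are relatively spared. OMN and DL therefore stand on the same side of that contrast, and the comparison described here asks instead what separates the cranial pool from both spinal ones.

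Values are the deposited intensities, given in the order of replicates 1, 2 and 3, and a level of 18.3, the highest value of any control probe set for an unspiked bacterial transcript, is used as the noise level. Differences are in log2(intensity + 16), given with the standard error of the fit, and a gene is called higher or lower where the limma p-value is under 0.05 after Benjamini-Hochberg adjustment over all 18193 genes. Each array had 67% to 71.5% of genes above noise. Among 7120 genes whose mean intensity passed 200, replicates had a median SD (log2) of 0.171 in OMN, 0.204 in L5 and 0.294 in DL, and the fit shares 1 spread over the pools. RNA quality was read from the Gapdh control probe sets, whose 3′ over 5′ ratio was 3.27 and 3.75 on DL arrays 1 and 3 and 2.33 to 2.67 on the other 7. The actin ratio was 0.934 and 0.995 on DL arrays 1 and 3 and ranged from 0.807 to 0.995 over all arrays. Hybridization controls had a geometric mean of 18280 to 21940 in OMN, 27350 to 33170 in L5 and 15410 to 24200 in DL. The first principal component, with 25.9% of the variance, placed OMN between -37.0 and -32.6, L5 between -11.7 and -8.64 and DL between 41.6 and 49.3. The second, with 22.2%, placed L5 between 40.5 and 46.1 and OMN and DL both below 0, and the third, with 14%, set DL array 2 at 54.9 apart from DL array 3 at -47.5, while the 6 OMN and L5 arrays lay between -2.51 and 2.92. In these bulk samples fewer cells of a type and less RNA per cell cannot be told apart.

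OMN had 227 genes above and 202 below the mean of the spinal pools. These are 1.25% and 1.11% of the genes tested, and 2755 genes had an unadjusted p under 0.05. Counts of members called in the gene lists below are to be set beside these shares. Against L5 alone 219 genes were higher and 173 lower (1.2% and 0.951%), and against DL alone 298 were higher and 247 lower (1.64% and 1.36%). These last comparisons share the OMN arrays. In 97 genes OMN was above each spinal pool and in 72 it was below each (0.533% and 0.396%), while 459 genes, 2.52%, differed between L5 and DL. The OMN arrays lay apart from all 6 spinal arrays in 96 of the 97 higher genes, Ccdc167, named after its values were seen, being the exception, and in 72 of the 72 lower ones, which the calling favours. Over all genes, 4.14% had OMN arrays above and 3.79% below every spinal array. Separate arrays of a called gene, given below, are therefore a description and no further support for its call.

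The calls against the mean did not all describe both spinal pools. Of the 227 higher genes, 97 were called against each pool, 38 against L5 but not DL, 81 against DL but not L5 and 11 against neither. Of the 202 lower genes, these numbers were 72, 46, 74 and 10. In 5 genes OMN lay between the spinal pools and was called against both, in opposite directions. Rgs10, Rtn4rl1, Scn7a and Synpr were above L5 and below DL, and Lypd6 was below L5 and above DL; they were chosen after their values were seen. Scn7a, a sodium channel gene, was at 104, 104 and 131 in OMN, 9.7, 1.9 and 3.1 in L5 and 856, 471 and 507 in DL. No array of one pool overlapped with those of another.

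The number of calls moved with the arrays used. It was 103, 120 and 115 against the mean without OMN array 3, 2 or 1 and 196 to 221 without 1 L5 array, and the set called against each pool fell from 169 to between 56 and 70 without any 1 of these 6 arrays. Without any 1 of them the calls against L5 fell from 392 to between 82 and 107 and those against DL from 545 to between 192 and 342. Without DL array 1 and DL array 3 the calls against DL were 279 and 363. With each array centred on its median, the median difference of all genes moved from 0.01 to -0.118 and the split turned from 227 higher and 202 lower to 164 and 278. The set called against each pool then had 76 higher and 97 lower genes, and the calls against DL 200 and 391.

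**Figure D1:**
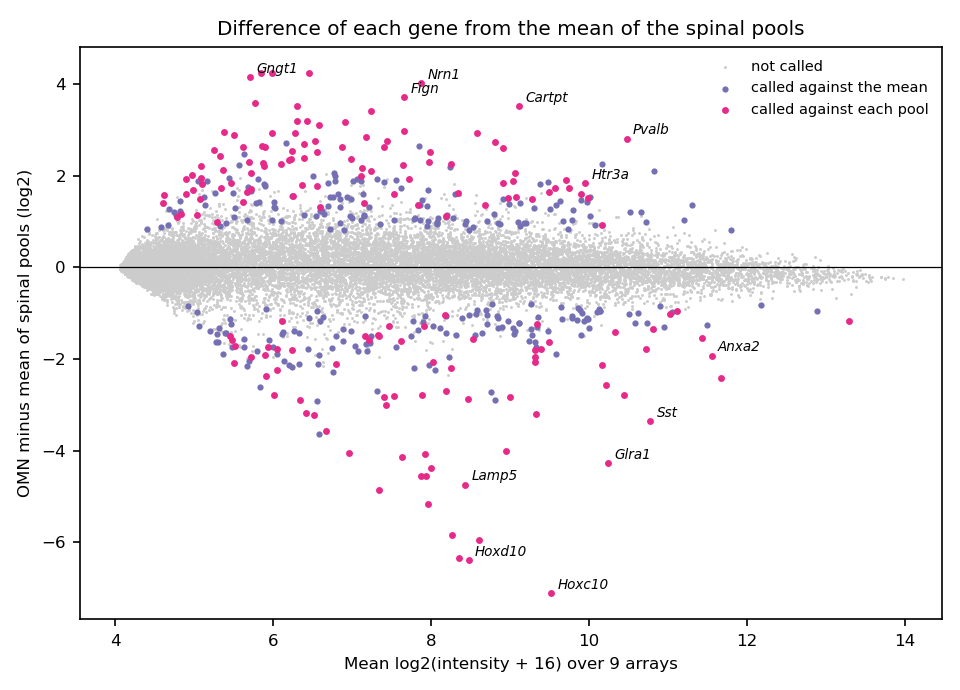
Difference of OMN from the mean of the spinal pools (vertical axis, log2) against the mean of log2(intensity + 16) over the 9 arrays (horizontal axis) for 18193 genes. Grey points were not called, purple points were called against the mean and pink points against each spinal pool in the same direction; the lowest point is Hoxc10 at -7.11, and Cnpy1 at 4.25 has the greatest difference upwards.

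The genes with the greatest excess in OMN over both pools were Tbx20, Gngt1, Cnpy1, Krt25, Nrn1, En2, Chrm1, Adcyap1, Irx2, Pvalb, Postn and Fign, ranked by the smaller of the differences from L5 and DL. They were taken from genes whose OMN arrays all lay above the 6 spinal arrays, so this separation follows from the choice. Tbx20, a T-box gene active in cranial motor nuclei, had intensities of 309.8, 539 and 485 in OMN, 11.5, 6.9 and 0.9 in L5 and 24.9, 3.8 and 4.7 in DL. Only 1 of the 6 spinal values, from DL array 1, exceeded the noise level. The difference from the mean was 4.24 ± 0.31 (limma adjusted p = 0.000931), and 3 of 3 probe sets were called. Gngt1, a G protein gamma subunit best known from rod photoreceptors, was at 307, 362 and 352 in OMN, while none of the 6 spinal arrays exceeded 16.9. OMN was therefore at least 18.6-fold above the noise level at which both spinal pools stood, and 3 of 4 probe sets were called higher. Cnpy1, which acts in fibroblast growth factor signalling at the boundary of midbrain and hindbrain, was at 450.1, 457 and 295 in OMN, 2.4, 2 and 2.6 in L5 and 2.2, 20.1 and 8.8 in DL.

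Krt25, a keratin gene known from hair follicles, was at 438, 685 and 733 in OMN, 18.4, 35.3 and 29.3 in L5 and 1.6, 27.9 and 4.2 in DL (difference from the mean 4.24 ± 0.23, limma adjusted p = 0.000299). It rests on 1 probe set. Nrn1, which encodes neuritin, a surface protein that promotes the growth of neurites, was at 1662, 1642 and 1214 in OMN, 27.6, 60.9 and 53.2 in L5 and 193, 268 and 30.4 in DL. In Nrn1, DL array 3 was far below the other DL arrays. Fign, a microtubule-severing enzyme, was at 1581, 777 and 1098 in OMN, 162, 222 and 102 in L5 and 44.5, 11.2 and 31.2 in DL, and L5 was itself above DL (difference 2.00, adjusted p = 0.0399). Postn, which encodes the matrix protein periostin, had an OMN mean of 155 ± 61.6 (SD, n = 3) with both spinal pools at the noise level, at least 8.04-fold. Each gene's call was tested again in 20 alternative analyses, and a p-value given as "up to" is the highest over all 20. The call of Nrn1 against the mean was lost without OMN array 1 or 3 (limma adjusted p up to 0.062). That of Adcyap1 was lost without OMN array 2 or 3 or with a pseudocount of 1 (up to 0.083). That of Irx2 was lost without any 1 L5 array, without OMN array 1 or 3 or with a pseudocount of 1 (up to 0.13). That of En2 was lost with a pseudocount of 1 (up to 0.068). Below, losses are listed mainly by array left out, and many calls were also lost with a pseudocount of 1 or otherwise.

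**Figure D2:**
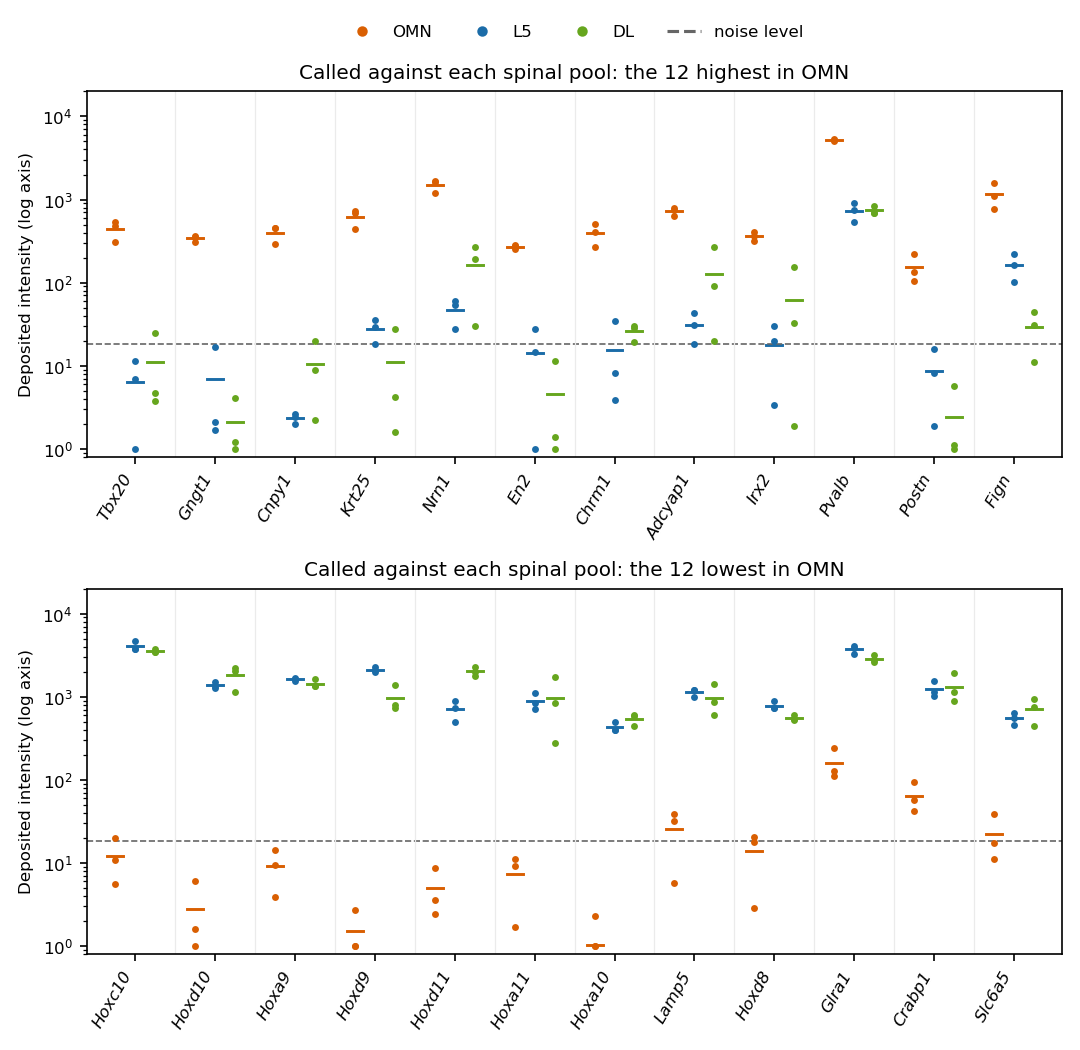
Deposited intensity (log axis) of the 12 genes with the greatest excess in OMN over both spinal pools (top) and the 12 with the greatest deficit (bottom), 1 point per array and a bar at the mean of each pool's 3 arrays, with values under 1 drawn at 1. The dashed line is the noise level of 18.3; in the bottom panel the OMN points of Hoxd10, Hoxa9, Hoxd9, Hoxd11, Hoxa11 and Hoxa10 all lie below it.

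The genes with the greatest deficit were mostly Hox genes. They were likewise taken from genes whose OMN arrays all lay below the spinal arrays. The array measured 16 Hox genes of groups 8 to 13, which pattern the trunk and limb levels of the cord. Of these, 10 were lower in OMN than the mean and 0 higher, and the same numbers, 10 and 0, were obtained against L5 and against DL. The median of the list was -4.06 against 0.01 for all genes. The summed intensity of the list ranged from 104 to 121 on the OMN arrays, from 11810 to 13180 in L5 and from 11820 to 12510 in DL. The other 6 members, Hoxb9, Hoxd12, Hoxa13, Hoxb13, Hoxc13 and Hoxd13, named after their values were seen, had differences between -0.18 and 0.10. Hoxb9 was at 21.6 ± 2.17, 24.9 ± 5.47 and 23.9 ± 16.6 in OMN, L5 and DL (SD, n = 3), close to the noise level in each pool.

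Among the 10, Hoxc10, Hoxd10 and Hoxa9 differed little between the spinal pools. Hoxa9 was at 3.9, 14.3 and 9.4 in OMN, 1628, 1670 and 1556 in L5 and 1328, 1345 and 1616 in DL. No OMN array exceeded the noise level, and the spinal pools were at least 88.4-fold and 77.8-fold above it. Hoxd11 was the only 1 of the 10 called between the spinal pools, at 492, 728 and 894 in L5 and 2005, 2284 and 1753 in DL against 3.6, 2.4 and 8.8 in OMN (L5 minus DL -1.53, limma adjusted p = 0.0294). Hoxa11 was at 9.1, 11 and 1.7 in OMN, 711, 1110.4 and 848 in L5 and 840.4, 1739 and 279.6 in DL. Its DL arrays spread widely, and the lowest was still far above every OMN array. Over the 20 alternatives, 9 or 10 of the 16 stayed called lower and none was called higher.

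Groups 1 to 7 are active at hindbrain and cervical levels. Of 17 measured genes 5 were lower in OMN and 0 higher, with a median of -0.90. Hoxa3, Hoxc4 and Hoxa5 were below each pool. Hoxa3 was at 2.8, 3.7 and 2.8 in OMN, 128, 148 and 204 in L5 and 474, 687 and 561 in DL. The pools did not overlap, and DL was above L5 (adjusted p = 0.0117). Hoxa5 was at 3.83 ± 2.81 in OMN, 157 ± 18.8 in L5 and 169 ± 40.7 in DL (SD, n = 3), at least 8.54-fold and 9.08-fold above the noise level in the spinal pools. The calls of Hoxb5 and Hoxb6 rested on L5, with DL array 2 of Hoxb5 at 5.7, and were lost without any 1 OMN or L5 array, that of Hoxb5 also without DL array 3 and that of Hoxb6 without DL array 1 or 2 (adjusted p up to 0.19 and 0.21).

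Cofactors of Hox proteins showed no common direction. Of 8 measured members of the Pbx and Meis families, 1 was higher and 1 lower, with a median of -0.018. Pbx3 was at 1086, 1005 and 905 in OMN, 431, 320.5 and 208 in L5 and 462, 333 and 328 in DL. No OMN array overlapped with a spinal one, and the call was made against each pool (difference from the mean 1.52 ± 0.18, limma adjusted p = 0.00811), although the call was lost without OMN array 2 or 3 (up to 0.083). Pknox2 was lower against the mean, with OMN and L5 arrays overlapping, and it lost its call without any 1 of the 9 arrays (up to 0.19).

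Transcription factors of the midbrain and of cranial motor neurons were the list with the greatest share of calls upwards. Of 22 measured members 13 were higher in OMN and 0 lower, with a median of 1.82, and 11 of the 13 were above each spinal pool. The members were chosen with earlier results of these data known, so the share is a description. The summed intensity was 3960 to 4327 on the OMN arrays, 779 to 1061 in L5 and 1068 to 1404 in DL. Between 7 and 14 members were called higher, and none lower, under the 20 alternatives.

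Within this list, 5 Iroquois genes, homeobox factors that subdivide the neural tube, were higher in OMN. Irx5 was at 441, 369 and 349 in OMN, 52.9, 72.8 and 66.1 in L5 and 11.4, 18.8 and 5.5 in DL. The 3 pools were fully separated, and L5 exceeded DL (difference 1.54, limma adjusted p = 0.0197). Irx6 was at 256, 301 and 301 in OMN, 37.9, 65.5 and 49.2 in L5 and 29.4, 15.7 and 33.8 in DL, with a difference from the mean of 2.53 ± 0.22 (adjusted p = 0.00209). Irx1 and Irx3, named after their values were seen, were called against DL (adjusted p = 0.0298 and 0.0104) but not against L5 (0.0619 and 0.0573). Irx2 was at 407, 366 and 317 in OMN, 3.4, 30.1 and 19.7 in L5 and 1.9, 152 and 33 in DL, with DL array 2 standing far above the other spinal arrays and below every OMN array.

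The engrailed genes, Otx genes and Foxa genes, which pattern the midbrain and its floor, were at or near the noise level on most spinal arrays. En2 was at 285, 274 and 254 in OMN, 27.4, 14.6 and 0.4 in L5 and 0.9, 11.3 and 1.4 in DL, and 5 of the 6 spinal values lay under the noise level. Otx1 was at 92.7, 139 and 95.2 in OMN with no spinal array above 11.6, at least 5.85-fold. The other members of this group, named after their values were seen, were dimmer or less complete in their separation. En1 had means of 279 ± 58.6, 21.1 ± 8.01 and 41.6 ± 18 in OMN, L5 and DL (SD, n = 3), Otx2 67.6 ± 9.82 in OMN, 6.4 ± 3.63 in L5 and 5.17 ± 3.75 in DL, and Foxa2 47 ± 7.54 in OMN, 6.67 ± 3.15 in L5 and 2.6 ± 0.79 in DL. Each was above both pools. Phox2a, a homeobox factor on which oculomotor neurons depend, stood near the noise level at 12.6, 15.2 and 30 in OMN, 13.6, 7 and 22.7 in L5 and 4.3, 1.3 and 1.9 in DL, and its single probe set made no call (adjusted p = 0.241). Eya1, a transcriptional cofactor named after its values were seen, was at 374 ± 106 in OMN, 31.7 ± 6.63 in L5 and 99.7 ± 33.2 in DL.

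**Figure D3:**
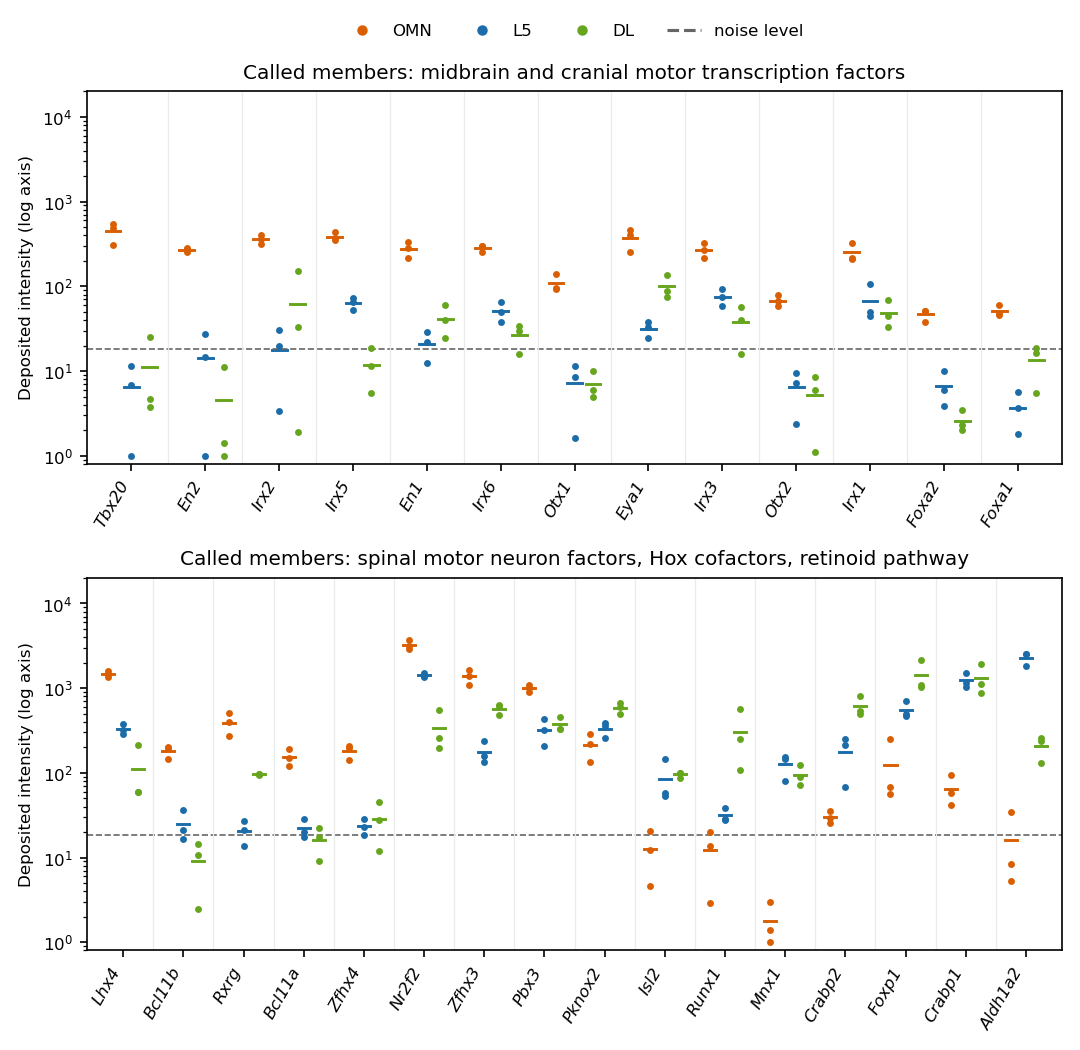
Deposited intensity (log axis) on each array, with a bar at each pool's mean, of the 13 called midbrain and cranial factors (top) and of 16 called spinal motor neuron factors, Hox cofactors and retinoid genes (bottom); values under 1 are drawn at 1 and the dashed line is the noise level of 18.3. In the top panel OMN points lie above all spinal points for every gene, and in the bottom panel Mnx1 has all OMN points at 3 or less and all spinal points at 71.3 or more.

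Transcription factors known from spinal motor neurons went both ways. Of 29 measured, 6 were higher in OMN and 4 lower against the mean, with a median of 0.27. Mnx1, a homeobox factor that consolidates the motor neuron fate in the spinal cord, was at 0.9, 1.4 and 3 in OMN, 156, 147 and 80.9 in L5 and 89.7, 122 and 71.3 in DL. It was at the noise level in every OMN array, and the spinal pools were at least 6.71-fold and 5.04-fold above that level. Isl2, a LIM homeobox factor of motor neurons named after its values were seen, had means of 12.6 ± 8.05 in OMN, 85.6 ± 51.8 in L5 and 96.2 ± 7.82 in DL (SD, n = 3), and was called against DL (adjusted p = 0.0338) but not L5 (0.0651). Foxp1, which sets up the motor columns that serve the limbs, was at 55.7, 252 and 68.4 in OMN, 706, 464 and 495 in L5 and 1039, 1099 and 2136 in DL. The OMN arrays were lowest, but array 2 was far above the others, and the call against the mean was lost without OMN array 1 or 3, DL array 1 or any L5 array (adjusted p up to 0.15). Isl1, expressed in motor neurons at all levels, did not pass against the mean (0.74 ± 0.20, adjusted p = 0.133). It was at 2129 ± 45.7 in OMN, 598 ± 134 in L5 and 2717 ± 414 in DL.

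The 6 factors that were higher in OMN are zinc finger, LIM and nuclear receptor genes. Bcl11a and Bcl11b, zinc finger factors known from cortical projection neurons, were both above each pool. Bcl11b was at 197, 203 and 147 in OMN, 21.2, 16.5 and 36.1 in L5 and 2.5, 14.5 and 10.6 in DL, and Bcl11a at 120, 192 and 151 in OMN, 20, 17.5 and 28.8 in L5 and 9.1, 22.2 and 17.7 in DL. In both genes spinal values were at or near noise. Of 7 Bcl11a probe sets 3 were called higher and of 4 for Bcl11b 1. Zfhx3 was called by 6 of 6 probe sets, at 1386 ± 281 in OMN, 178 ± 55 in L5 and 575 ± 83.1 in DL, and its difference from DL passed narrowly (adjusted p = 0.0497). Zfhx4, a related factor, had a difference from the mean of 2.27 ± 0.24 (adjusted p = 0.00487, and up to 0.054 without OMN array 3). Lhx4, a LIM factor transiently active in spinal motor neuron precursors and named after its values were seen, was at 1609.9, 1458 and 1369 in OMN, 383, 322 and 291 in L5 and 59.6, 59.9 and 214 in DL. All pools were separate, and the difference from L5 passed narrowly (adjusted p = 0.0498). Nr2f2, an orphan nuclear receptor, was above DL (difference 3.34, adjusted p = 0.0028) but not called against L5 (1.18, 0.13), and L5 differed from DL (2.15, 0.0197); its call against the mean was lost without OMN array 1 or 3 (up to 0.08).

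Aldh1a2, Crabp1 and Crabp2, of retinoic acid synthesis and binding, were lower in OMN, and the receptor gene Rxrg was higher. Retinoic acid is made by limb-level motor neurons and patterns motor pools. Of 23 measured members 3 were lower and 1 higher, with a median of -0.09, and these 4 differed from each spinal pool. Aldh1a2, the main enzyme of retinoic acid synthesis in the embryo, was at 8.4, 34.5 and 5.3 in OMN, 2512, 2535 and 1806 in L5 and 256, 129.9 and 235 in DL. The pools did not overlap, and L5 exceeded DL by 3.40 (limma adjusted p = 0.00982). Crabp1, which binds retinoic acid in the cytoplasm, was at 57.4, 94.8 and 41.7 in OMN, 1529, 1149.7 and 1029 in L5 and 878, 1127 and 1936 in DL. Its spinal pools overlapped with each other and not with OMN (difference from the mean -4.00 ± 0.33, adjusted p = 0.0016). Crabp2 had a difference of -2.83 ± 0.32, with a narrow pass against L5 (adjusted p = 0.0482), and lost its call against the mean without OMN array 2 or 3 (up to 0.061). Rxrg, a retinoid X receptor, ran the opposite way at 511, 269 and 396 in OMN, 13.7, 26.7 and 21.3 in L5 and 96, 97.4 and 95 in DL, with OMN highest and L5 at about the noise level. Vdr, the vitamin D receptor and no member of that list, was at 122 ± 40.9 in OMN (SD, n = 3) with DL at noise, at least 6.35-fold, and was not called against L5 (adjusted p = 0.115). It lost its call against the mean without any 1 OMN array, L5 array 1 or DL array 1 (up to 0.13).

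The transporters of choline and acetylcholine were well above noise on every array. Slc5a7, the choline transporter, was at 4188, 4192 and 3942 in OMN, 4979, 3826 and 3415 in L5 and 2864, 3351 and 3475 in DL, and Slc18a3, the vesicular acetylcholine transporter, was at 2755, 1997 and 2682 in OMN, 2294, 3574 and 2616 in L5 and 1657, 2556 and 774 in DL (difference from the mean 0.27 ± 0.34, adjusted p = 0.776). Chat, the enzyme of acetylcholine synthesis, stood near the noise level in every pool (22.3 ± 2.02 in OMN, 6.1 ± 6.01 in L5 and 15.6 ± 6.76 in DL), on 1 probe set, so it could not check the cell type. Among 18 measured cholinergic genes 0 were higher and 1 lower, with a median of -0.18. The lower gene was Prph, the neurofilament-related protein peripherin, at 4571, 4796 and 5166 in OMN, 10376, 10280.2 and 10114 in L5 and 9121, 9228 and 7529.5 in DL. OMN and spinal arrays did not overlap, but the call against the mean (difference -0.95 ± 0.16, adjusted p = 0.0301) was lost without any 1 array other than DL array 3 (up to 0.18) and was made by 1 of 4 probe sets. Of 9 measured motor neuron markers, Prph was again the 1 call, and their summed intensity was 21090 to 23040 in OMN, 28230 to 31690 in L5 and 25440 to 28710 in DL.

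Receptors for acetylcholine gave 4 calls, where 1.25% of all genes were higher and 1.11% lower. Of 18 measured, 2 muscarinic genes were higher in OMN and 2 nicotinic genes lower. Chrm1, the muscarinic M1 receptor, was at 507, 270.5 and 408 in OMN, 8.2, 3.9 and 34.4 in L5 and 28.7, 19.5 and 30.2 in DL. Its OMN values were over 7 times any spinal value, with 2 of 2 probe sets called (difference from the mean 3.52 ± 0.25, limma adjusted p = 0.000834). Chrm3 was higher by 1.24 ± 0.21, a call lost without any 1 array other than DL array 2 and after quantile normalization or centring (adjusted p up to 0.19). Chrna5, a nicotinic accessory subunit, was at the noise level on each OMN array and at 38, 23 and 63.5 in L5 and 52.7, 45.9 and 61.6 in DL, at least 2.08-fold and 2.90-fold, and its call was lost without any 1 OMN array (up to 0.087). Chrna3 was below DL (difference -3.61, adjusted p = 0.000601) and not called against L5 (-0.78, 0.159).

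The glycine receptor genes Glra1 and Glra2 were lower in OMN. Of 12 measured genes of glycine receptors and chloride transport 2 were lower and 0 higher, with a median of -0.016, and 2 or 3 were called lower under each of the 20 alternatives. Glra1, the adult-type alpha subunit that carries fast inhibition of motor neurons, was at 245, 111 and 128 in OMN, 3864, 4058 and 3226 in L5 and 2769.9, 2631 and 3149.8 in DL. The lowest spinal value was more than 10 times the highest OMN value, and 2 of 2 probe sets were called (difference from the mean -4.27 ± 0.23, limma adjusted p = 0.000305). Glra2, the subunit that prevails before birth, was at 328, 418 and 364 in OMN, 2789, 2089 and 1911 in L5 and 3562, 2645 and 3138 in DL (difference -2.78 ± 0.20, adjusted p = 0.000834). Neither was called between L5 and DL (adjusted p = 0.512 and 0.32).

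Slc6a5, the glycine transporter of glycine-releasing neurons and their terminals, moved with these receptor genes, at 17.4, 39.2 and 11.1 in OMN, 457, 558 and 637 in L5 and 440.4, 749.5 and 931 in DL. The lowest spinal value was 440.4 and the highest OMN value 39.2 (difference from the mean -4.08 ± 0.27, limma adjusted p = 0.000613). Slc32a1, the vesicular transporter for GABA and glycine, was called lower by 1 of 4 probe sets (-1.48 ± 0.20), and lost this call without any 1 OMN array and with the mean of its probe sets (adjusted p up to 0.17). The list of 6 measured markers of GABA and glycine neurons had 0 higher and 2 lower calls against the mean, but its median was 0.68, above 0. Against L5 alone 2 members, Gad1 and Gad2, were higher and 1 lower, and against DL 0 were higher and 2 lower. The list summed to 1970 to 2695 in OMN, 1642 to 2271 in L5 and 5027 to 5885 in DL. Gad2, which makes GABA, was at 1312 ± 119.6 in OMN, 269 ± 18.4 in L5 and 2340.1 ± 339.8 in DL (SD, n = 3). The sums in OMN overlapped with those in L5 and lay under those in DL, and the part of such cells in the results was not tested.

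GABA receptor genes had 1 call each way among 15 measured, where 1.25% of all genes were higher and 1.11% lower. Gabrb2, a beta subunit, was at 1461, 1742 and 1522 in OMN, 276, 257 and 207 in L5 and 110.4, 330.3 and 214 in DL. OMN exceeded each spinal array by more than 4 times, and 4 of 5 probe sets were called (difference from the mean 2.74 ± 0.27, limma adjusted p = 0.00368). Gabra2, an alpha subunit, was lower at 155, 187 and 152 in OMN, 371, 337 and 357 in L5 and 368, 350 and 333 in DL. OMN and spinal arrays did not overlap, but 1 of 5 probe sets was called and the call was lost without any 1 OMN or L5 array or DL array 1 (adjusted p up to 0.15).

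Calls among glutamate receptor genes stand beside 1.25% of all genes higher and 1.11% lower. Of 25 measured ionotropic genes 1 was higher and 1 lower, with 11 at an unadjusted limma p under 0.05 and a median of 0.07. Of 9 metabotropic genes 1 was higher and 0 lower, with 6 at an unadjusted p under 0.05 and a median of 0.80. The metabotropic list summed to 3722 to 4041 in OMN, 1524 to 1828 in L5 and 2047 to 2886 in DL. Neto1, an auxiliary subunit of kainate and NMDA receptors, was at 1375, 1568 and 1617 in OMN, 682, 607 and 698 in L5 and 401, 293 and 332 in DL, with 3 of 3 probe sets called (difference from the mean 1.64 ± 0.17, limma adjusted p = 0.00463, and 0.054 without OMN array 3). Grm3 was called against DL (difference 2.32, adjusted p = 0.00303) and not against L5 (0.91, 0.105), and its call against the mean was lost without any 1 OMN array (up to 0.073). Cacng5, which regulates AMPA receptors, was lower in OMN at a difference of -1.62 ± 0.29, a call lost without any 1 OMN or L5 array or DL array 1 (up to 0.2).

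Serotonin receptors gave 4 calls, where 1.25% of all genes were higher and 1.11% lower. Of 13 measured, Htr1d and Htr3a were higher in OMN and Htr2c and Htr7 lower. Htr1d, a receptor that inhibits adenylyl cyclase and is known from gamma motor neurons, was at 648, 790.4 and 937 in OMN, 139.5, 178 and 46.5 in L5 and 67, 75.4 and 58.2 in DL. The OMN arrays were all at least 3 times the highest spinal array, with 3 of 3 probe sets called (difference from the mean 2.98 ± 0.32, limma adjusted p = 0.00527). Htr3a, a serotonin-gated cation channel, was at 2287, 2296 and 2318 in OMN, 563, 599.5 and 419 in L5 and 846, 667 and 796 in DL (1.84 ± 0.18, adjusted p = 0.0038). Htr2c, a receptor that raises motor neuron excitability, was at 107, 135 and 111 in OMN, 358, 330.2 and 261 in L5 and 292, 252 and 352 in DL. OMN and spinal arrays did not overlap, but the call was lost without any 1 OMN array, L5 array 1 or 2 or DL array 1 (up to 0.15). Htr7 was called against DL (adjusted p = 0.00846) and not L5 (0.128), and against the mean it lost its call without any 1 OMN or L5 array (up to 0.13). Of 6 measured dopamine and adrenergic receptors 1, Adra2c, was lower, and its call was lost without any 1 of the 9 arrays (up to 0.12).

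**Figure D4:**
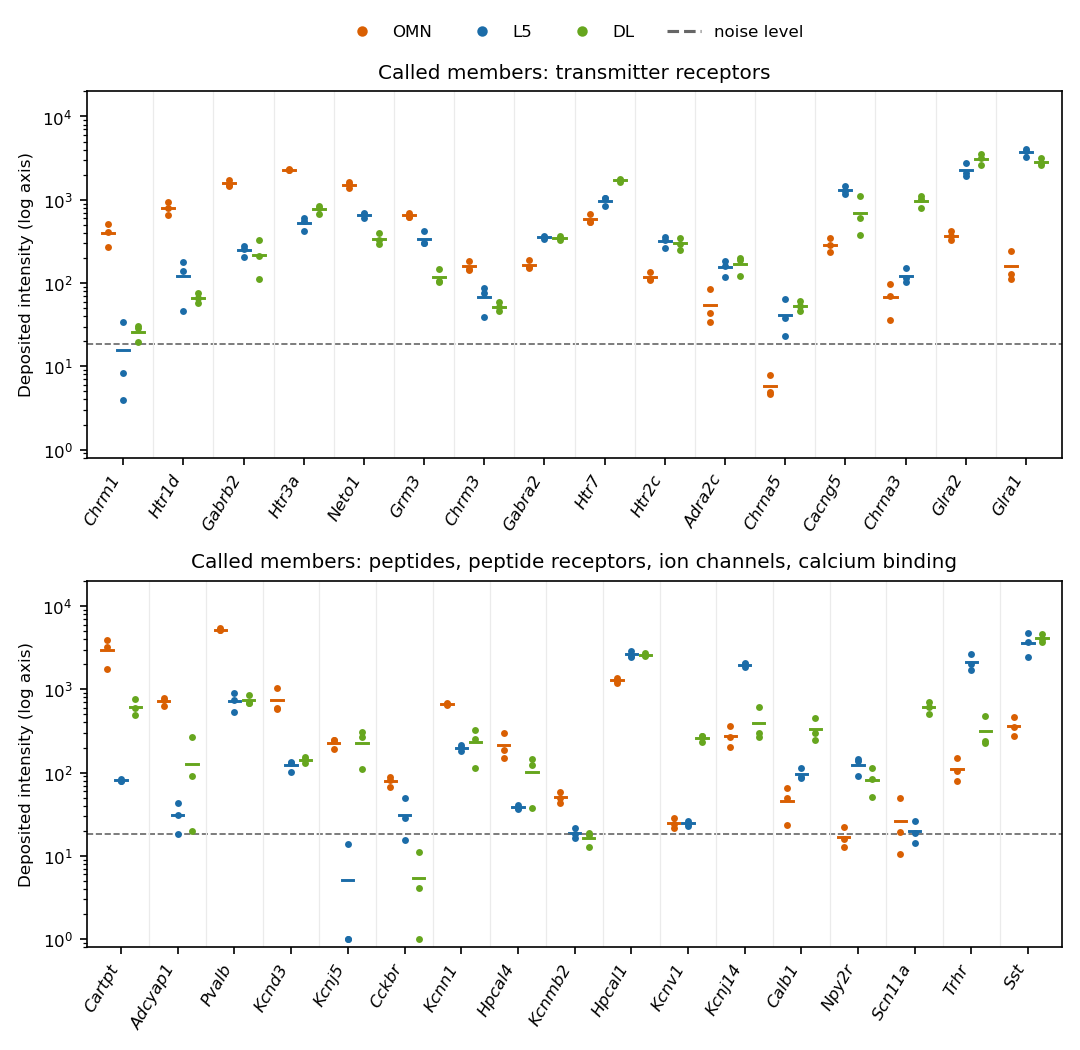
Deposited intensity (log axis) on each array, with a bar at each pool's mean, of called members of the transmitter receptor lists (top) and of the peptide, peptide receptor, ion channel and calcium binding lists (bottom); values under 1 are drawn at 1 and the dashed line is the noise level of 18.3. Chrm1, Htr1d, Gabrb2 and Pvalb have all OMN points above all spinal points, Glra1, Glra2 and Sst have them below, and for Scn11a and Kcnv1 OMN and L5 overlap while DL stands apart.

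Peptides that motor neurons or their inputs make gave calls both ways, where 1.25% of all genes were higher and 1.11% lower. Of 35 measured neuropeptide genes 2 were higher and 1 lower, with a median of -0.133, and these 3 differed from each spinal pool. Adcyap1, which encodes the peptide PACAP, was at 739, 632 and 795 in OMN, 30.7, 18.4 and 43.4 in L5 and 267, 19.7 and 90 in DL. Its DL arrays spread over more than 10 times and none reached OMN (difference from the mean 3.43 ± 0.43, limma adjusted p = 0.0099). Cartpt, which encodes the CART peptide, was at 3207, 3930.3 and 1778 in OMN, 78.9, 78.4 and 84 in L5 and 762, 596 and 497 in DL. The 3 pools were separate, with OMN array 3 lowest in its pool, and DL was above L5 (-2.70, adjusted p = 0.00616). Sst, which encodes somatostatin, was at 469.5, 272 and 354 in OMN, 2473, 3727 and 4694 in L5 and 4025, 4568 and 3737 in DL, lower in OMN than on every spinal array (-3.35 ± 0.27, adjusted p = 0.00141).

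Cartpt is also a marker of peptide neurons of the Edinger-Westphal nucleus, which adjoins the oculomotor nucleus. Of 6 measured markers of these neurons it was the 1 call, and the list summed to 2325 to 4670 in OMN, 437 to 614 in L5 and 2987 to 3395 in DL. Cartpt itself made up most of the sum in OMN and a minor part of it in DL. Ucn, which encodes their urocortin peptide, was at 18.8, 32.1 and 3.9 in OMN, 4.3, 4.3 and 4.9 in L5 and 11.6, 25.8 and 23.1 in DL, at about the noise level in OMN and DL alike (adjusted p = 0.726). Cck was at 162 ± 73.9 in OMN, 144 ± 29 in L5 and 245 ± 55.8 in DL (SD, n = 3, adjusted p = 0.663).

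Of 46 measured neuropeptide receptors 1 was higher and 2 lower, where 1.25% of all genes were higher and 1.11% lower. Trhr, through which thyrotropin-releasing hormone acts, was at 78.9, 105 and 148 in OMN, 2633, 2028 and 1693 in L5 and 224, 472 and 241 in DL. Its call against the mean (-2.71 ± 0.30) came from L5 (adjusted p = 0.0025), while the difference from DL did not pass (-1.33, 0.104), and it was lost without OMN array 1 or 2 (up to 0.059). Npy2r, a neuropeptide Y receptor, was at 22.4, 15.9 and 12.7 in OMN, near the noise level, and 137, 91 and 146 in L5 and 83.8, 51.4 and 112.3 in DL. It was below each pool and lost the call against the mean without OMN array 1 or 3 (up to 0.057). Cckbr, a cholecystokinin receptor, was called against DL, at least 4.28-fold, and not L5 (adjusted p = 0.0754), and its call against the mean was lost without OMN array 1 or 2 (up to 0.065).

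Ion channel lists gave calls both ways, where 1.25% of all genes were higher and 1.11% lower. A single call in a list of this size already exceeds that share. Of 37 measured voltage-gated potassium channels 1 was higher and 1 lower, of 31 other potassium and HCN channels 3 were higher and 1 lower, of 15 sodium channels 1 was lower, and of 14 calcium channels limma called 0, with 1 at an unadjusted p under 0.05. Kcnd3, an A-type channel subunit, was at 1038, 581 and 605 in OMN, 101, 129 and 136 in L5 and 131, 146 and 153 in DL, and no spinal array came within 3 times of any OMN array (difference from the mean 2.31 ± 0.24, limma adjusted p = 0.00445). Kcnn1, a small-conductance calcium-activated channel, was at 654, 682 and 661 in OMN, 201, 184 and 215 in L5 and 252, 114 and 328 in DL. The OMN values were close together and the DL values were not, and the call (difference 1.62 ± 0.26, adjusted p = 0.0252) was lost without any 1 OMN or L5 array or DL array 1 (up to 0.15).

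Other channel calls reflected 1 spinal pool. Kcnj5 was at 229 ± 30.7 in OMN and 227 ± 103 in DL (SD, n = 3) with L5 at noise, at least 12.4-fold below OMN. Kcnj14 was at 277 ± 77.6 in OMN and 396 ± 194 in DL, with L5 at 1973 ± 90.7. Scn11a and Kcnv1 were low in OMN and L5 alike and at 609 ± 105 and 262 ± 25.8 in DL. In these 4 genes limma called the difference between L5 and DL (adjusted p = 0.0057, 0.0125, 0.00256 and 0.00256), so the mean of the spinal pools describes neither. Kcnj5, Kcnj14 and Kcnv1 lost the call against the mean without any 1 OMN array and Scn11a without OMN array 2 or 3 (adjusted p up to 0.14, 0.16, 0.061 and 0.089). Kcnj5 and Kcnj14 lost theirs without any 1 L5 array, Kcnj5 also without DL array 2.

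Pvalb, which encodes the calcium buffer parvalbumin, had the brightest signal among the leading OMN genes. It was at 5169.6, 5394 and 5099.7 in OMN, 541, 746 and 905 in L5 and 694, 846 and 688 in DL. The 6 spinal values overlapped with one another and all lay far below the OMN values (difference from the mean 2.82 ± 0.19, limma adjusted p = 0.000683). Of 27 measured calcium buffers and sensors 2 were higher, Pvalb and Hpcal4, and 2 lower, Calb1 and Hpcal1. Over all genes 1.25% were higher and 1.11% lower. Hpcal1, a neuronal calcium sensor, was at 1198, 1251 and 1387 in OMN, 2460.4, 2913 and 2547 in L5 and 2702, 2605 and 2492 in DL, below each pool. The call of Hpcal1 was lost without any 1 OMN or L5 array or DL array 1 (adjusted p up to 0.14), that of Hpcal4 without any 1 OMN array, L5 array 2 or 3 or DL array 2 or 3 (up to 0.21), and that of Calb1 without OMN array 1 or 3 or any 1 L5 array (up to 0.17). Rgs4, which shortens G protein signals, was below each pool at 656, 663 and 647 in OMN against 2329, 1807 and 1676 in L5 and 1570.3, 1748 and 1601 in DL, with 3 of 3 probe sets called (adjusted p = 0.00758, and up to 0.073 without any 1 OMN array).

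Axon guidance lists gave a few calls each, where 1.25% of all genes were higher and 1.11% lower. Of 31 measured semaphorins, plexins and neuropilins 3 were higher and 0 lower, with a median of 0.168, and 1 was above each spinal pool. Of 21 Eph receptors and ephrins 2 were higher and 0 lower, with a median of 0.4, and 2 were above each spinal pool. The list of netrin, Slit and other guidance genes, given below, went both ways. With a trend and robust variances 5 of the semaphorin list were higher and 4 lower, and 2 of the Eph list were higher and 1 lower. Plxna2, a semaphorin receptor, was at 1839.5, 1648 and 1572 in OMN, 629, 393 and 464 in L5 and 516, 472 and 502 in DL. The spinal pools overlapped fully, and 4 of 4 probe sets were called (difference from the mean 1.74 ± 0.17, limma adjusted p = 0.00347). Epha6, an Eph receptor, was at 490.2, 441 and 584 in OMN, 93.9, 91.3 and 68.3 in L5 and 17, 18.4 and 16.4 in DL, and all 3 pools were separate. Epha7 was at 191, 248 and 281 in OMN, 35, 27 and 24.5 in L5 and 29, 72.1 and 20.5 in DL, with 3 of 4 probe sets called (adjusted p = 0.00677, and 0.057 without OMN array 3).

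Sema3e, a secreted semaphorin that signals through a plexin, was called against L5 and not against DL. It was at 1693, 1269 and 1668 in OMN and 2073, 1989 and 2183 in DL, with L5 at 49.7, 111.6 and 72.4, and the difference from DL was -0.44 ± 0.28 (adjusted p = 0.515). Its call against the mean was lost without L5 array 3 or OMN array 1 or 3 (up to 0.097). Nrp1 lost its call without any 1 of the 9 arrays (adjusted p up to 0.22). Of 33 netrin, Slit and other guidance genes 2 were higher and 2 lower, where 1.25% of all genes were higher and 1.11% lower. Reln, a secreted glycoprotein that guides neuron migration, was at 114, 119.9 and 134 in OMN, 1150, 1176 and 1234 in L5 and 734, 734 and 899 in DL. All pools were separate (difference from the mean -2.83 ± 0.15, adjusted p = 0.000299), but 1 of 2 probe sets was called. Of 27 cadherins and protocadherins 3 were lower and 0 higher, and each of these calls, Pcdh17, Cdh6 and Cdh22, was lost without any 1 OMN array, L5 array 1 or 2 or DL array 2 (up to 0.15, 0.18 and 0.22). Pcdh17 also lost it without DL array 3, Cdh22 without L5 array 3 or DL array 1, and Cdh6 without any 1 of the 9 arrays.

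Growth factor lists gave 1 call or 0 each, where 1.25% of all genes were higher and 1.11% lower. Of 14 measured genes of the insulin-like growth factor system 1, Igf1, was higher and 0 lower, with a median of 0.59. Igf1, a survival factor for motor neurons, was at 1595, 981 and 1199 in OMN, 276, 316 and 184 in L5 and 342, 449 and 453 in DL. The lowest OMN array was over 2 times the highest spinal array, 4 of 4 probe sets were called, and the call against the mean (difference 1.88 ± 0.25, limma adjusted p = 0.0119) was lost without OMN array 1 or 3 (up to 0.096). Igf2, which earlier work has linked to the sparing of oculomotor neurons, was at 300, 558 and 474 in OMN, 94.5, 333 and 342 in L5 and 650.2, 166 and 108 in DL. Its arrays overlapped, with DL array 1 above every OMN array, and it made no call (0.88 ± 0.62, adjusted p = 0.584). Of 22 neurotrophic factors and receptors 1, Bdnf, was lower, and of 21 fibroblast growth factors and receptors limma called 0, with 5 at an unadjusted p under 0.05. Bdnf was called against DL (difference -2.46, adjusted p = 0.00267) and not L5 (-0.23, 0.688), and against the mean it lost its call without any 1 OMN array or L5 array 1 or 3 (up to 0.12).

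Genes of oxidative phosphorylation, inherited ALS and the unfolded protein response gave 1 call, where 1.25% of all genes were higher and 1.11% lower. Of 51 measured genes of oxidative phosphorylation and its control 1 was higher and 0 lower, with 3 at an unadjusted p under 0.05 and a median of -0.118. Against L5 alone 13 had an unadjusted limma p under 0.05, with a median of -0.324, and between L5 and DL 18 had. The list summed to 265000 to 271600 in OMN, 322500 to 361700 in L5 and 238700 to 285000 in DL. The higher gene was Ppargc1a, a coactivator that raises mitochondrial content, at 1907, 1873 and 1937 in OMN, 633, 667 and 436 in L5 and 575, 388 and 722 in DL. The highest spinal array was far below the lowest OMN array, and 5 of 5 probe sets were called (difference from the mean 1.75 ± 0.24, limma adjusted p = 0.0153), although the call was lost without any 1 OMN array (up to 0.11). Of 23 genes of inherited ALS limma called 0, with 1 at an unadjusted p under 0.05, and of 24 genes of the unfolded protein response it called 0, with 1. Against L5 alone it called 0 in each, with 5 and 1 at an unadjusted p under 0.05. Neither list had a call under any of the 20 alternatives, but 0 calls in lists of this size do not set them apart from all genes. Sod1 and Tardbp, in which mutations cause ALS, were named after their values were seen. Sod1 was at 8144 ± 529.9, 9682 ± 462 and 8676 ± 1225 in OMN, L5 and DL (SD, n = 3), and Tardbp at 1542 ± 40.1 in OMN, 1339.6 ± 102 in L5 and 1782 ± 168 in DL. Of 24 immediate early and injury genes limma called 0, with 5 at an unadjusted p under 0.05.

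Markers of slow and gamma motor neurons gave calls upwards, while those of fast and alpha motor neurons had a median below 0. Of 9 measured slow and gamma motor neuron markers 3, Htr1d, Esrrb and Esrrg, were higher and 0 lower, with a median of 0.1. Esrrb, an orphan nuclear receptor, was at 410.4, 492 and 422 in OMN, 205, 143 and 176 in L5 and 150.2, 33.2 and 40.7 in DL, and was called against DL (adjusted p = 0.0149) but not L5 (0.159). The calls of Esrrb and Esrrg were lost without any 1 OMN or L5 array or DL array 3, that of Esrrb also without DL array 2 and that of Esrrg without DL array 1 (adjusted p up to 0.18 and 0.24), and with arrays centred on their medians 2 of the list were higher and 1 lower. Of 5 measured fast and alpha markers limma called 0, with 4 at an unadjusted p under 0.05 and a median of -0.961. Against L5 alone 1 was called lower, with a median of -1.73. Against DL limma called 0, with a median of 0.112. The list summed to 4125 to 4815 in OMN, 6645 to 7832 in L5 and 5439 to 5548 in DL. Mmp9, a protease of fast motor neurons, was below L5 (difference -2.56, adjusted p = 0.0217) and not called against DL (0.64, 0.484).

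Calls in lists of other signals stand beside 1.25% of all genes higher and 1.11% lower. In the Wnt list 1 of 41 measured genes was higher and 2 lower, in the TGF-beta and BMP list 1 of 32 higher and 2 lower, in the Notch list 1 of 21 higher and 1 lower, in the matrix list 1 of 37 higher, in the list of synaptic vesicle release 1 of 32 higher and in the chaperone list 1 of 23, Hspb8, lower. Dkk3 and Sfrp1, secreted modulators of Wnt signals, and Dlk1, a Notch ligand, were called lower through L5. Dlk1 was at 273, 207 and 331 in OMN, 1596, 1853 and 2055 in L5 and 176, 323 and 382 in DL, and OMN overlapped with DL. Hapln1, which links hyaluronan to the matrix, was at 2278, 1964 and 2048 in OMN, 2041, 1834 and 1401 in L5 and 223, 279.8 and 359.8 in DL, so that OMN and L5 overlapped and DL was low. Hes5, a Notch target, was at 226 ± 52.7 in OMN, 35.3 ± 11.7 in L5 and 107 ± 34.5 in DL (SD, n = 3), called against L5 and not DL (adjusted p = 0.00812 and 0.107). Tgfb3, a growth factor, was below each pool at 14.6 ± 11.9 in OMN, 79.7 ± 26 in L5 and 91.4 ± 17.7 in DL. The calls against the mean of Dkk3, Sfrp1, Dlk1, Hapln1, Hes5 and Tgfb3 were not kept without certain arrays. Those of Dkk3, Sfrp1 and Dlk1 were lost without any 1 OMN or L5 array (adjusted p up to 0.2, 0.14 and 0.15), and also without DL array 1 or 3 for Dkk3, DL array 1 for Sfrp1 and DL array 3 for Dlk1. Those of Hapln1 and Hes5 were lost without any 1 OMN array or L5 array 2 (up to 0.12 and 0.11), and that of Tgfb3 without OMN array 2 or 3, L5 array 2 or 3 or DL array 1 or 3 (up to 0.15). Of 10 measured genes that earlier work named for eye or spinal motor neurons, Pvalb and Esrrb were higher and Prph lower.

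**Figure D5:**
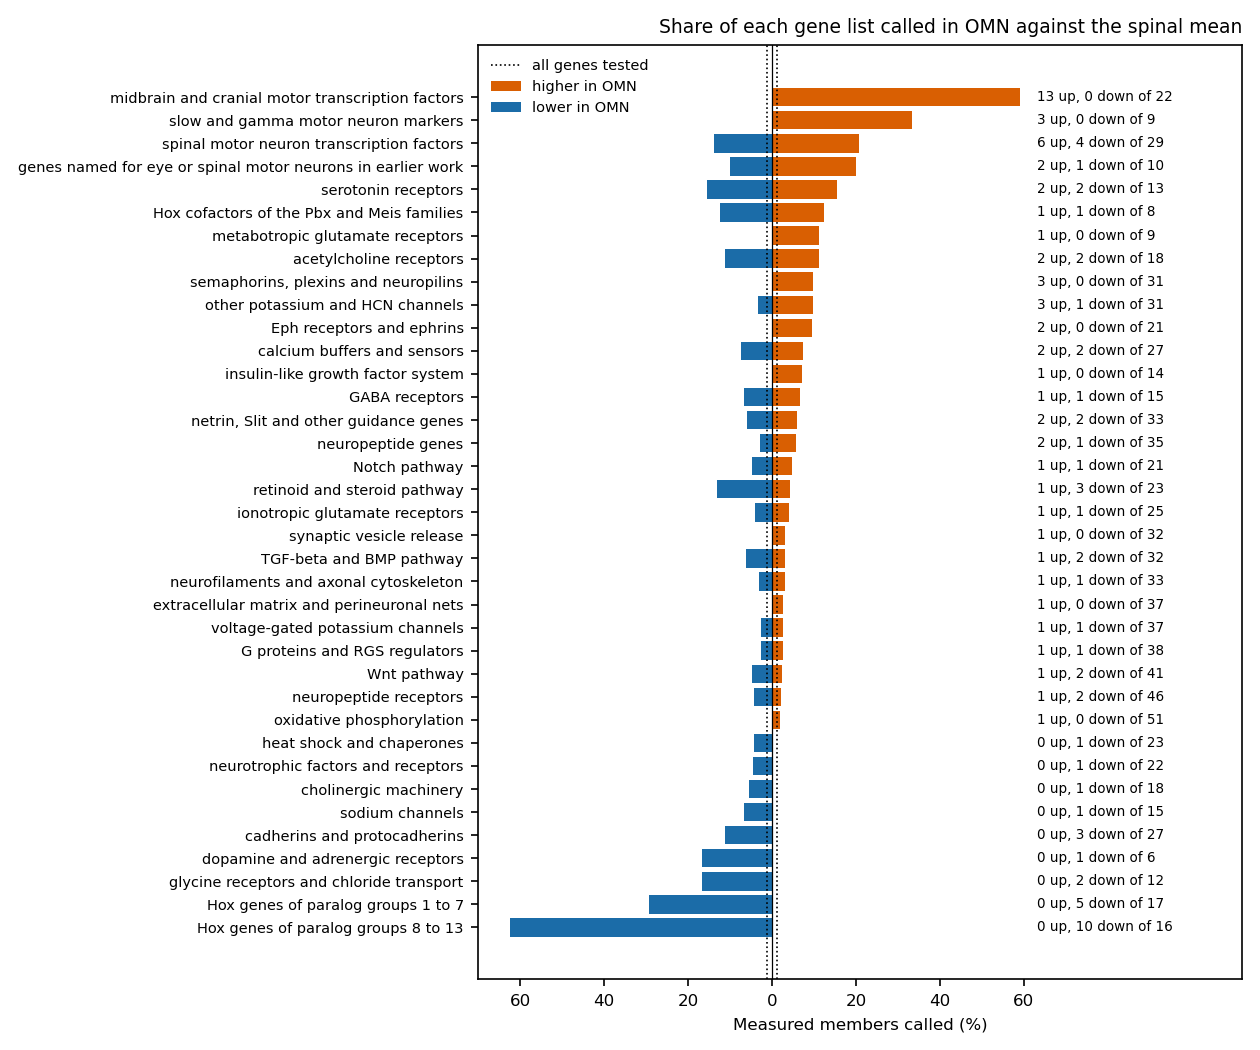
Share of the measured members of each gene list called higher (orange, to the right) or lower (blue, to the left) in OMN against the mean of the spinal pools, in percent, for the 37 pathway lists with a call; dotted lines mark the 1.25% and 1.11% of all genes. Hox genes of groups 8 to 13 reach furthest to the left with 10 of 16 members, and midbrain and cranial factors furthest to the right with 13 of 22.

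Some genes stood apart from only 1 spinal pool. Sgpp2, an enzyme that removes phosphate from sphingosine 1-phosphate, was at 684, 858 and 765 in OMN, 438, 401 and 339.7 in L5 and 31.8, 9.8 and 29.8 in DL. OMN was highest on every array, and the call was made against DL (difference 4.35 ± 0.28, limma adjusted p = 0.000601) and not against L5 (0.94 ± 0.28, 0.159). Piezo2, a channel opened by mechanical force, was at 29.8, 13.1 and 55 in OMN, 58.5, 128 and 114 in L5 and 946, 812 and 603 in DL, and Susd5 at 28, 2.8 and 2 in OMN, 39.8, 38.9 and 132 in L5 and 678, 429 and 263 in DL. Both were high in DL and were called lower against DL (adjusted p = 0.00313 and 0.00836) and not against L5 (0.178 and 0.188). The call of Piezo2 against the mean was lost without OMN array 1 or 2 (up to 0.074), and that of Susd5 without any 1 OMN array, L5 array 2 or DL array 1 or 2 (up to 0.15).

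Col5a2, a chain of type V collagen, was at 262, 186 and 259.9 in OMN, 26.8, 20.2 and 24.1 in L5 and 114, 1.6 and 5.5 in DL, with 2 of 2 probe sets called. DL array 1 stood far above the other DL arrays and below every OMN array, and the call passed narrowly against DL (adjusted p = 0.0438) and did not pass against L5 (0.0614). Mlip was at 123, 85.7 and 247 in OMN, 28.2, 44.5 and 9.1 in L5 and 8.2, 1.1 and 1.1 in DL, called against DL (0.0166) and not L5 (0.092). Hoxb5os, a transcript antisense to Hoxb5, was at noise in OMN and at 334, 288 and 409 in L5 and 113, 473 and 24.9 in DL, called against L5 (0.0278) and not DL (0.0789). Against the mean, the calls of Col5a2, Mlip and Hoxb5os were lost without any 1 OMN array (up to 0.19, 0.11 and 0.17). That of Col5a2 was also lost without any 1 L5 array or DL array 2 or 3, that of Mlip without L5 array 1 or 3 or DL array 2 or 3, and that of Hoxb5os without any 1 L5 array or DL array 1.

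Some markers of other cells were lower in OMN, where 1.11% of all genes were lower. Gfap, the intermediate filament of astrocytes, was at 12.2, 19.1 and 22.7 in OMN, 392, 351 and 233 in L5 and 1074, 2333 and 1243 in DL, with 3 of 3 probe sets called and DL above L5 (limma adjusted p = 0.0185). It was the 1 call among 14 astrocyte markers, whose summed intensity was 25030 to 25960 in OMN, 28880 to 31790 in L5 and 24130 to 26610 in DL. Of 14 oligodendrocyte markers 1, Mal, was lower, 11 had an unadjusted p under 0.05, the median was -0.65, and the sum was 15060 to 16710 in OMN, 18360 to 19420 in L5 and 25270 to 27940 in DL, so that the OMN sums lay below all spinal sums. Against L5 alone limma called 0 of the 14, with 0 at an unadjusted p under 0.05, and against DL 4 were called lower. Mal overlapped with L5 and lost its call without any 1 of the 9 arrays (adjusted p up to 0.21). Of 13 microglia and 12 endothelial and pericyte markers limma called 0, with 4 and 1 at an unadjusted p under 0.05. The microglia list summed to 1232 to 1702 in OMN, 1352 to 1485 in L5 and 875 to 1339 in DL, and the endothelial and pericyte list to 3464 to 4246, 2854 to 3435 and 4268 to 5218. The part of these cells in the results was not tested.

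Pmp22, a myelin protein of peripheral nerve, and Prrxl1, a homeobox factor of sensory circuits, were below each pool, the 2 calls among 5 measured markers of Schwann cells and sensory neurons. Pmp22 was at 94, 143 and 167 in OMN, 1863, 2202 and 2115 in L5 and 826, 720.4 and 1077 in DL, and made up most of the sum of that list, which was 143 to 220 in OMN, 1942 to 2279 in L5 and 1075 to 1539 in DL. Prrxl1 was at noise in OMN and at 30.7, 35.5 and 90.8 in L5 and 383, 334 and 411 in DL.

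Some genes of catecholamine and glutamate neurons were higher in OMN, where 1.25% of all genes were higher. Of 9 measured dopamine and noradrenaline markers 3, Th, Ddc and Slc6a2, were above each pool. Th, the rate-limiting enzyme of catecholamine synthesis, was at 75.2, 114 and 77.6 in OMN, 17.7, 21.2 and 9 in L5 and 10.4, 3.3 and 19.7 in DL. Its spinal values were at or near noise (difference from the mean 1.85 ± 0.27, limma adjusted p = 0.0175), and the call was lost without any 1 OMN array or L5 array 1 or 3 (up to 0.12). The dopamine transporter Slc6a3 and the midbrain dopamine factor Pitx3, both named after their values were seen, stood below 18.3 on all 9 arrays, at OMN means of 10.6 ± 3.67 and 1.33 ± 0.35, and the list summed to 1216 to 1309 in OMN, 709 to 799 in L5 and 611 to 1689 in DL. Slc6a2, at 46.6 ± 11.8 in OMN, and Ddc, at 140.4 ± 9.67, also lost their calls without OMN array 1 or 2, and Slc6a2 without OMN array 3, DL array 3 or any 1 L5 array (up to 0.3 and 0.08).

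Slc17a6, the vesicular glutamate transporter of many brainstem neurons, was at 1219, 1183 and 968 in OMN, 502, 479 and 389 in L5 and 285, 177 and 144 in DL. The pools were separate, and 1 of 2 probe sets was called (difference from the mean 1.85 ± 0.18, limma adjusted p = 0.00346). It was the 1 call of 4 measured glutamate neuron markers, and Slc17a7, the transporter of cortical neurons, was at noise in all pools (2.8 ± 2.93 in OMN, 9.03 ± 6.17 in L5 and 8.5 ± 3.12 in DL). The list summed to 978 to 1250 in OMN, 432 to 520 in L5 and 160 to 316 in DL. Slc17a6 made up most of that sum in each pool, and the median of the list was -0.018. Of 4 measured red nucleus and tectum markers, 4 serotonin neuron markers and 5 ependymal markers limma called 0, with 2, 1 and 1 at an unadjusted p under 0.05.

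Lamp5, Lgals1 and Anxa2 were also lower in OMN than each spinal pool. Lamp5, a lysosome-associated membrane protein of neurons, was at 31.6, 39 and 5.8 in OMN, 1216, 1003 and 1196 in L5 and 874, 597 and 1422 in DL, so that the lowest spinal value was more than 10 times the highest OMN value (difference from the mean -4.74 ± 0.38, limma adjusted p = 0.00141). Lgals1, galectin 1, a lectin linked to axon growth, and Anxa2, a calcium-dependent membrane-binding protein, were named after their values were seen. Lgals1 was bright in all pools, at 5861 ± 352 in OMN, 13914 ± 1625 in L5 and 12683 ± 2335 in DL (SD, n = 3). Anxa2 was at 1059, 1311 and 1306 in OMN, 4296, 4649 and 5019.5 in L5 and 4876, 5196 and 4109 in DL, close to equal in the spinal pools (L5 minus DL -0.02).

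The promoters of the genes set apart were read for the TAATTA core that many homeodomains bind and for TGATTNAT, bound by Pbx and Hox proteins together, on both strands of the 250 bases before each transcript start (RefSeq, GRCm38.p6), written in the direction of the gene. Of the 97 higher genes 75 had a window, and of the 72 lower genes 56. TAATTA was in 4 of 102 windows of higher genes (3.92%) and 2 of 74 of lower genes (2.7%), against 4.84% of 32841 windows of all genes and 3.2% of 18106 windows of the genes on the array. TGATTNAT was in 2 of 102 (1.96%) and 4 of 74 (5.41%), against 2.83% and 1.78%. Some genes have several start sites, and counted by gene TAATTA was in 3 of 75 higher genes (4%) and 1 of 56 lower genes (1.79%), Hoxd11, against 3.83% of 14449 genes on the array. Counted likewise, TGATTNAT was in 2 (2.67%) and 4 (7.14%), against 2.15%. These are a handful of windows, and no factor's binding was measured. The windows of Sst, Slc6a5, Slc17a6, Krt25 and Hoxd11 are shown because they hold a match and their genes were called against each pool and kept the call against the mean in all 20 alternatives. Htr2c, which lost its call in some alternatives, and Lhx4 and Otx2, which were not followed over them, also hold a match. Both start sites of Hoxd11 are shown, since each has a match. Capitals mark the match. The windows lie, in the order shown, at chr16:23890845-23891094 (minus strand), chr7:49910049-49910298 (plus), chr7:51624387-51624636 (plus), chr11:99322952-99323201 (minus), chr2:74679308-74679557 (plus) and chr2:74682073-74682322 (plus). In Slc17a6 the motifs overlap in 1 run of capitals, and that window belongs to 1 of 2 start sites, as does that of Slc6a5.
Sst: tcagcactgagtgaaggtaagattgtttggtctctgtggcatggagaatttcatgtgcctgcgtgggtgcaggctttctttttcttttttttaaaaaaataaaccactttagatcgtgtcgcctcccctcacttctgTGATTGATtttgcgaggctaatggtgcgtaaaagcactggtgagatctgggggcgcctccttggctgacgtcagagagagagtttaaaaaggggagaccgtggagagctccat
Slc6a5: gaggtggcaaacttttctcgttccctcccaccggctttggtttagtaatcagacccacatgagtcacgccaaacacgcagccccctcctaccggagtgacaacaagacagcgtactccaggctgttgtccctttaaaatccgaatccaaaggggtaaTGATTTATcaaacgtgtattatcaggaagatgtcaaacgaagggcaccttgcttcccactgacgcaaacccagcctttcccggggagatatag
Slc17a6: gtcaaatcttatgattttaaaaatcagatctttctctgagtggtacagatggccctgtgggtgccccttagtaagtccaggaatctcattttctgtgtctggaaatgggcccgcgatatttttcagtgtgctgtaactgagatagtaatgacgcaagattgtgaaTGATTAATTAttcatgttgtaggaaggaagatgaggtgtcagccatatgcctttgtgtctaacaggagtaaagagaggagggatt
Krt25: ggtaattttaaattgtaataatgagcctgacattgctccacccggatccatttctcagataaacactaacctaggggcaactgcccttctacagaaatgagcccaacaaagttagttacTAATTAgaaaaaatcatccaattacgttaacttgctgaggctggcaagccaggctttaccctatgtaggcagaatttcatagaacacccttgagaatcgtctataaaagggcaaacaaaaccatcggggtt
Hoxd11, first window: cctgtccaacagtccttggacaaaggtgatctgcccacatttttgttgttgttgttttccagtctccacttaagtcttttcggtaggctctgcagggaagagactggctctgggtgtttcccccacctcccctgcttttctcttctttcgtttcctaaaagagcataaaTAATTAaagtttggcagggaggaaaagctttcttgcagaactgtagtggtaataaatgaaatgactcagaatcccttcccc
Hoxd11, second window: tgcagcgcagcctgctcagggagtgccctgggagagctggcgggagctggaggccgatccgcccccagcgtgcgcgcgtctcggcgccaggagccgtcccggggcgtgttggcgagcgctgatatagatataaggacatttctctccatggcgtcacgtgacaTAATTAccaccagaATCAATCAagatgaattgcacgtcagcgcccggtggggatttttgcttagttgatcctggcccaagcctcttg
The windows of Tbx20, Hoxd10, Pvalb and Mnx1 hold neither motif.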

How the data were processed

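RNA of laser-captured motor neurons of 9 samples was measured on 1 array each. The authors deposited 1 intensity per probe set on a linear scale, per the deposited table itself. Every array has the same mean, 250.0, once the outer 2% at each end are left out; the summary software, not given in the sources used here, may matter since its handling of values near noise is unknown. The number of arrays, 3 a pool, limits the precision.

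Values were taken as log2(intensity + 16). Of 45101 probe sets, 34945 had 1 gene symbol in the platform annotation; a gene with several was given by the probe set with the highest mean, which left 18193 genes. They were fitted with limma 3.58.1 (R 4.3.3, eBayes, Benjamini-Hochberg adjustment) with the replicate number as a block, on simulated data first. The labels say that each animal gave all 3 pools but not that equal numbers mark 1 animal. Deviations of equal-numbered arrays correlated between -0.073 and 0.062, none over 0.1, so a pairing is not shown by the data. P-values set each difference against the spread left between samples within pools after the block, shared over the 3 pools.

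"At least" folds set a pool against the noise level where all 3 of its arrays lay at or below it. Named genes were, in each direction, the 12 with the greatest difference from both spinal pools among genes with separate arrays, the 12 with the greatest difference from the mean, the 5 greatest called against only 1 spinal pool, up to 5 members of each list by p, and a panel of known motor neuron genes. Provisional symbols were passed over. Names outside this rule are marked as chosen after their values were seen. The members and lists were chosen with earlier results of these data known. Alternatives changed the pseudocount, scaling, probe sets, dim genes, the block, the variance model, the arrays left out and the Gapdh ratio as a covariate. Promoter windows were matched by symbol to RefSeq, GRCm38.p6. Figures were drawn with matplotlib 3.10.9 (Python 3.11.15).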

Additional observations from a re-analysis of the deposited data

Results flagged for a closer look

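The spinal pools themselves differed (limma adjusted p under 0.05) in 33 of the named and called genes, so that the difference of OMN from L5 and from DL was unequal there. Values are L5 minus DL in log2, and these differences were tested directly. L5 was above DL by 3.41 in Sgpp2, 3.4 in Aldh1a2, 2.76 in Trhr, 2.64 in Dlk1, 2.56 in Hapln1, 2.37 in Kcnj14, 2.15 in Nr2f2 and 2 in Fign. Smaller excesses in L5 were 1.59 in Epha6, 1.54 in Irx5, 1.41 in Dkk3, 1.4 in Grm3, 1.38 in Esrrg, 1.34 in Cdh6, 1.24 in Pmp22 and 1.16 in Slc17a6.

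L5 was below DL in the guidance gene Sema3e at -4.53, in the channel genes Scn11a at -4.12, Kcnj5 at -3.47, Piezo2 at -2.82 and Kcnv1 at -2.78, and in the receptor subunit Chrna3 at -2.83. The differences were -2.7 in Cartpt, -2.62 in Prrxl1, -2.45 in Gdf10, -2.23 in Bdnf, -2.14 in Gfap and -2.11 in Mal. They were -1.75 in Hoxa3, -1.64 in Zfhx3, -1.63 in Rxrg, -1.6 in Calb1 and -1.53 in Hoxd11. In Epha6, Irx5, Fign, Slc17a6, Aldh1a2, Pmp22, Cartpt, Prrxl1, Gfap, Hoxa3, Hoxd11, Rxrg and Zfhx3 OMN was nevertheless called against each spinal pool in 1 direction.

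Among 10092 probe sets that name no single gene, which entered no comparison of genes, limma called 16 higher and 9 lower in OMN than the mean of the spinal pools, adjusted over these probe sets.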

How the results depend on the processing

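With all 9 arrays, 429 genes were called for OMN against the mean of the 2 spinal pools, 392 for OMN against L5, 545 for OMN against DL and 169 against each pool. A pseudocount of 1 gave 154, 101, 196 and 57, and one of 64 gave 609 against L5. A trended, robust variance gave 772, 946, 872 and 288, and array weights 677 against L5. The Gapdh ratio as a covariate gave 274 against DL and 111 against each pool, DL arrays 1 and 3 left out together 126 and 63, and fits of only the pools compared 119 and 68. Without 1 array at a time the counts ran from 103 to 362 against the mean, 82 to 374 against L5, 192 to 365 against DL and 56 to 127 against each pool. Without the replicate block they were 594, 574, 712 and 213. The other settings stayed within 1.5 times. Of 119 named and called genes, 48 kept the call against the mean in all 20 alternatives and 0 changed direction in any; 64 kept it with a pseudocount of 1, 53 to 62 without 1 OMN array, 76 to 78 without 1 L5 array and 91 to 100 without 1 DL array. The cause of these changes was not tested, beyond the fewer arrays in the fit. On no array did 2654 genes exceed noise, and folds near that level are bounds.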

Other observations

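Of the 5 genes in which OMN lay between the spinal pools and differed from both, Rgs10, a regulator of G protein signals, was at 372, 508 and 475 in OMN, 177, 222 and 154 in L5 and 1221, 1036 and 1099 in DL. Rtn4rl1, a receptor for inhibitors of axon growth, was at 207, 287 and 201 in OMN, 93.5, 98.2 and 93 in L5 and 1011, 884 and 901 in DL, and Synpr, a synaptic vesicle protein, at 166, 157 and 121 in OMN, 13.4, 44.5 and 34.7 in L5 and 686, 430.5 and 624 in DL. Lypd6, a membrane-anchored modulator of nicotinic receptors, ran the other way at 295, 453 and 406 in OMN, 1179.6, 1012 and 1037 in L5 and 181, 159.9 and 147 in DL. All were chosen after their values were seen.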
